A study of Homo sapiens with 372 samples.

Results

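A2780 cells, a line from a human ovarian endometrioid adenocarcinoma, were exposed for 16 h to 5 nM paclitaxel together with 75 µM celecoxib and compared with untreated cells of the same line by full-length single-cell RNA sequencing (Smart-seq2 on a C1 capture system). The comparison holds 105 of the 338 cells in the table of the series: all 59 retained cells with both drugs (group PacCele16h) and all 46 retained control cells (group Ctrl), chosen by their labels alone. The control cells received neither drug, and the labels name no vehicle and no time for them. Each condition was 1 capture run and the labels name no separate cultures. Every value below therefore compares runs, no p-value or standard error was made from cells, and a spread over cells (SD, or the lowest, median and highest cell) describes cells and not repeats of the treatment. The control libraries all carried indices of block 4 and the combination libraries those of block 1 (34 cells) or block 3 (25 cells), so that treatment, capture run and index block cannot be told apart. Cells given a single drug for 16 h are set beside the combination further below. These were 56 retained cells with 5 nM paclitaxel, all of index block 1, and 61 with 75 µM celecoxib, all of block 3. Of 17 epithelial and ovarian markers, only VIM and KRT18 are among the genes listed, detected in 76.1% and 23.9% of the control cells. Of 15 leukocyte markers only LYZ is listed, at a median of 0 in both groups. Of 14 fibroblast and endothelial markers only COL1A2 and COL3A1 are, detected in 17.4% and 73.9% of the control cells. The identity of the cells is therefore taken from the study and not from these markers.

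Paclitaxel binds microtubules and holds dividing cells in mitosis. Celecoxib inhibits cyclooxygenase-2, an enzyme of prostaglandin synthesis, and at high doses it is also known to disturb calcium in the endoplasmic reticulum. Cells that sense misfolded protein, amino acid shortage or mitochondrial stress phosphorylate the initiation factor eIF2, which slows translation but favours that of the transcription factor ATF4. ATF4 and its partner CHOP then switch on genes for amino acid synthesis, amino acid import and tRNA charging, a programme called the integrated stress response. Genes for mitosis are switched on late in the cell cycle, in large part through a promoter element called the CHR and through CCAAT boxes, and genes for DNA replication are switched on earlier, at the start of S phase.

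The promoters of 6 genes that differed most or stand for a group described below are shown first, because they carry the elements by which these programmes are usually read. Each line gives the 220 bases before the start of the gene in RefSeq (GRCh38.p14), 5′ to 3′ on the strand of the gene. Capitals mark the C/EBP-ATF response element TGATGNAAN in ASNS and CHAC1, a pair of interferon-stimulated response half-sites in IFITM1, and the CHR TTTGAA and the CCAAT box in CDC20, PLK1 and CCNB2, each on either strand.
ASNS, chr7:97872409-97872628, minus strand: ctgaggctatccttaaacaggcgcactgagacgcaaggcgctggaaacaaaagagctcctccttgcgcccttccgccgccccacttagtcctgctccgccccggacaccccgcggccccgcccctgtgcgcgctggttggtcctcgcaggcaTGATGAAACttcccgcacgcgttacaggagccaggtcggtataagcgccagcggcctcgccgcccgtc
CHAC1, chr15:40953251-40953470, plus strand: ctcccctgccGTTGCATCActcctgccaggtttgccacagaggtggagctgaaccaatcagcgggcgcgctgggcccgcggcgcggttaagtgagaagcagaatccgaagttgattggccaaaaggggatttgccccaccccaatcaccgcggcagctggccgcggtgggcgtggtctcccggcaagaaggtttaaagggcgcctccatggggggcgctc
IFITM1, chr11:313820-314039, plus strand: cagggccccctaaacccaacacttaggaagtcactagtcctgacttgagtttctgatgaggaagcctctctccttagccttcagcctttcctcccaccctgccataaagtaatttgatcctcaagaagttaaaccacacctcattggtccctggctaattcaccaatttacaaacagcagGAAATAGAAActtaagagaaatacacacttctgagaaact
CDC20, chr1:43358761-43358980, plus strand: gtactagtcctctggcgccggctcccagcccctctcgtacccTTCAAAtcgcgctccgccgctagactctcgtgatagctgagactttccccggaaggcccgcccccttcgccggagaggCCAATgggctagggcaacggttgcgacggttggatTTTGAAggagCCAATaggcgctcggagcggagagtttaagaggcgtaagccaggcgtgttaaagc
PLK1, chr16:23678669-23678888, plus strand: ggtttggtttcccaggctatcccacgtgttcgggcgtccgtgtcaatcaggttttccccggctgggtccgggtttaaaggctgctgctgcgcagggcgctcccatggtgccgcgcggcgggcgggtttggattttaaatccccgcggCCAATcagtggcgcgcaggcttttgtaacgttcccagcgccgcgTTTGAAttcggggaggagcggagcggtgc
CCNB2, chr15:59104926-59105145, plus strand: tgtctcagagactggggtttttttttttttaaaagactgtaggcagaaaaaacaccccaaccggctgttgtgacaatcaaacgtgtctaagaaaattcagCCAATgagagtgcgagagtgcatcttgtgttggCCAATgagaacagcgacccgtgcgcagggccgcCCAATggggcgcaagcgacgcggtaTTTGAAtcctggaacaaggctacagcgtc
With the base before the start counted as -1, the marked element begins at -68 in ASNS and, on the opposite strand, at -210 in CHAC1. The CHR begins at -29 in both PLK1 and CCNB2. Over the 7964 promoters matched to the genes tested, TGATGNAAN stood in 1.12%, TTTGAA in 6.82%, CCAAT in 34.2% and the paired half-sites in 1.83%. Among the genes of the lists used below, TGATGNAAN stood in 5 of 39 promoters of the integrated stress response (12.8%), TTTGAA in 23 of 49 of mitosis (46.9%), CCAAT in 37 of those 49 (75.5%) and the paired half-sites in 10 of 22 of the interferon response (45.5%). CCAAT was not particular to mitosis: it stood in 53.8% of promoters of the integrated stress response, 50% of the interferon response and 47.1% of replication. None of 67 promoters of oxidative phosphorylation genes held TGATGNAAN, 2 held TTTGAA and 31.3% held CCAAT. These are matches of letters in a fixed window and not measurements of binding.

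The values deposited are E-values, log2(N/10 + 1), in which N is the TPM of a gene after scaling the cell to its most abundant spike-in RNA. On this scale a cell with more RNA per spike-in molecule has higher values for most genes. N was added up over the 9664 genes of the table to give the transcript total of a cell. Relative to the median control cell, on a log2 scale, it ran from -2.13 to 0.80 in the control cells and from -0.80 to 2.85 in the combination cells, with a median of 0.49 in the latter. In 38 of the 59 combination cells the total lay within the range of the control cells, and in the other 21 it lay above it. The highest value came from index block 3, where the SD over cells was 0.70, against 0.46 in block 1.

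The combination cells held more transcript but fewer detected genes. At a similar total they detected fewer genes than the control cells: the 38 combination cells with totals in the control range detected a median of 5916 genes against 6630 in the control cells. Within each group the number of genes detected followed the total closely (Pearson r = 0.898 over 46 control cells and 0.92 over 59 combination cells, a description in which both measures come from the same library). Detection was lower for most genes at middle levels. Among the 2305 genes with a mean E-value between 2 and 4 in control cells, 74.4% were detected in a smaller share of combination cells than of control cells, the median share being 91.3% against 86.4%. Of the 3629 genes with a mean of at most 1 in control cells, 47.2% were detected in a smaller share, and of the 71 genes with a mean above 8 none was. The levels are not on equal terms here. Genes above 8 had a median share of 100% in both groups, which leaves little room for a loss. Genes low in control cells could pass the detection filter through another condition, the combination included. Read counts per cell are unknown, and the part of sequencing depth in these shares was not tested.

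**Figure D1:**
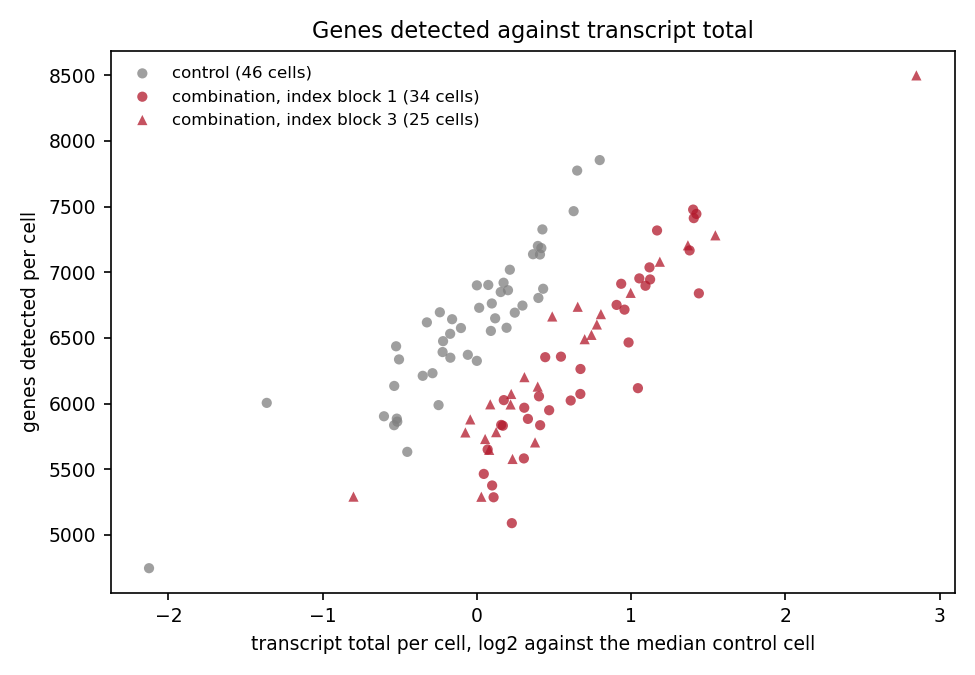
Each point is a cell, with its transcript total (log2 of the ratio to the median control cell) on the x axis and the number of genes detected on the y axis; grey points are control cells, red circles and triangles combination cells of index blocks 1 and 3. The groups overlap, 38 of 59 combination cells lying within the control range of totals, with medians of 6190 and 6129 genes in blocks 1 and 3 against 6630 in control cells.

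Since the total differed, every gene was compared on 2 scales, as deposited and after rescaling each cell to the median control total, and a gene was counted when the mean E-value over cells differed by more than log2 of 1.5. Over the 9655 genes tested, the median difference was 0.33 as deposited and 0.02 at the same total. As deposited 30.4% of the genes were past this limit upwards and 1.76% downwards, and at the same total 7.87% and 7.64%. Upward genes thus made up 94.5% of those counted as deposited and 50.7% at the same total. With the 38 combination cells whose totals lay in the control range, 1371 genes were higher and 714 lower as deposited, and with ratios of mean linear values 6968 were higher. Rescaling lowers nearly all combination values alike, so that the 170 genes lower as deposited were bound to be among those lower at the same total. The other 2176 genes higher as deposited were inside the limit at the same total. In both index blocks taken alone, 482 genes (4.99%) were past the limit upwards and 471 (4.88%) downwards at the same total.

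The integrated stress response gave the largest upward median of the 38 lists compared, on both scales. Of its 46 measured genes, 37 (80.4%, against 30.4% of all genes) were past the limit upwards and 1 downwards (2.17%, against 1.76%) as deposited. At the same total 25 (54.3%, against 7.87% of all genes) were past it upwards and 1 downwards (2.17%, against 7.64%). The median difference of the list was 1.17 as deposited and 0.74 at the same total, and 24 of the 25 genes were past the limit in both index blocks. The upward counts for parts of the list below stand against the same 30.4% and 7.87% of all genes.

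The enzymes that make amino acids and feed one-carbon metabolism stood highest within the list. Of 9 such genes, 8 were past the limit upwards as deposited and 7 at the same total, with medians of 1.67 and 1.04. ASNS, asparagine synthetase (ENSG00000070669, chr7:97851677-97872542 in GENCODE 44 on hg38), had a lowest, median and highest E-value at the same total of 0, 3.19 and 5.78 in control cells and of 0, 5.83 and 7.48 in combination cells. Its mean was 2.98 ± 1.27 (SD over 46 cells) against 5.47 ± 1.56 (59 cells), and 31 of the 59 combination cells lay above the highest control cell. The gene was thus present in most control cells and higher in nearly all combination cells, 56 of which exceeded the control median. PHGDH, which starts serine synthesis from a glycolytic intermediate, differed by 2.34 as deposited and 1.75 at the same total, and PSPH, PSAT1, MTHFD2, SHMT2 and ALDH1L2 of the serine and folate branches by between 0.76 (SHMT2) and 1.35 (ALDH1L2) at the same total. Of the cysteine pathway enzymes, CTH differed by 0.71 as deposited and 0.46 at the same total, inside the limit there, and CBS by -0.24 and -0.57, inside it on both scales.

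PCK2, the mitochondrial phosphoenolpyruvate carboxykinase, is not in that list and gave the widest separation of single cells among the 8 largest rises. Its lowest, median and highest E-values at the same total were 0, 0.18 and 3.27 in control cells and 0, 3.98 and 5.86 in combination cells, and 44 of the 59 combination cells lay above the highest control cell. It was detected in 50.0% of control and 86.4% of combination cells. ASS1, argininosuccinate synthase, which makes the precursor of arginine, showed the largest gain in the share of cells detecting a gene. It was detected in 2 of 46 control cells (4.35%, exact Clopper-Pearson 95% interval 0.531 to 14.8%) and in 34 of 59 combination cells (57.6%, 44.1 to 70.4%), intervals that cover counting error only. All 34 lay above the highest control cell.

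Of the 12 genes for tRNA charging and export, 11 were past the limit as deposited and 7 at the same total, with medians of 1.28 and 0.69. AARS, SARS, IARS, EPRS, YARS, NARS and CARS, which load alanine, serine, isoleucine, glutamate and proline, tyrosine, asparagine and cysteine onto their tRNAs, differed by 1.45, 1.14, 0.80, 0.77, 0.76, 0.71 and 0.66 at the same total. WARS, the tryptophan enzyme, differed by only 0.08. Of 8 amino acid transporters, 6 were past the limit as deposited and 3 at the same total: SLC3A2, the shared heavy chain of several exchangers (1.15), SLC1A5, a glutamine importer (1.09), and SLC7A11, the cystine importer (0.89).

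Of 7 transcription factors of the programme, 6 were past the limit upwards as deposited and 3 at the same total, with medians of 1.05 and 0.53. ATF4 itself, whose protein is mainly set by translation, differed by 1.05 as deposited and by 0.39 at the same total. DDIT3, which encodes CHOP, differed by 1.18 at the same total, ATF5 by 0.86 and CEBPB by 0.79, and the other 3 factors measured, CEBPG, NUPR1 and JDP2, by 0.51, 0.53 and 0.39. Among the regulators, DDIT4, an inhibitor of the growth kinase mTORC1, had a lowest, median and highest E-value at the same total of 0, 0.11 and 6.62 in control and of 0, 4.15 and 7.25 in combination cells, and was detected in 50.0% and 84.7% of the cells. CHAC1, which degrades glutathione, and TRIB3, a pseudokinase that restrains ATF4 and AKT, differed by 1.65 and 1.64, and GDF15, a secreted stress hormone, by 1.25. PPP1R15A, which directs the phosphatase that removes phosphate from eIF2, was the only member lower past the limit, by -0.73 at the same total, with detection in 69.6% of control and 37.3% of combination cells.

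The stress response differed between the cells of the combination. The mean difference of the 46 genes from their control means, at the same total, had a lowest, median and highest value of -0.77, 0.04 and 0.75 over control cells and of -0.84, 0.97 and 1.80 over combination cells. It exceeded the highest control cell in 35 of the 59 combination cells, while 13 lay below the control median. The medians of index blocks 1 and 3 were 0.93 and 0.98. The share of the transcript total held by these genes, which the rescaling does not touch, was 0.263% in the median control cell and 0.642% in the median combination cell, and 13 of the 59 combination cells exceeded the highest control share of 0.822%.

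Chaperones and folding enzymes of the endoplasmic reticulum, the other arms of the unfolded protein response, differed less. Of 24 measured, 16 (66.7%, against 30.4% of all genes) were past the limit upwards as deposited. At the same total only ATF6, a stress sensor (0.68), and HSPA5, the chaperone BiP (0.65), were higher (8.33%, against 7.87% of all genes). SDF2L1 (-0.77) and CRELD2 (-0.94) were lower (8.33%, against 7.64%). Both shares were near those over all genes, and only ATF6 was past the limit in both index blocks. The list median was 0.79 and 0.18 on the 2 scales. The cytosolic heat shock genes lay the other way at the same total. Of 18, HSPB1 (0.78) was higher (5.56%, against 7.87% of all genes) and 4 were lower (22.2%, against 7.64%), among them HSPA8, the constitutive HSP70 (-1.15). Of 26 p53 targets, GDF15 alone was past the limit at the same total (3.85%, against 7.87% of all genes upwards), and CDKN1A, the cell cycle inhibitor p21, differed by -0.10.

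Genes for mitosis gave the largest downward median. Of 55 measured, 25 were past the limit downwards as deposited, against 1.76% of all genes, and the median there was -0.45 against 0.33 over all genes. At the same total 36 (65.5%, against 7.64% of all genes) were, and the median was -0.89. With ratios of mean linear values the median was 0.22 as deposited, turning its direction, and -0.57 at the same total, inside the limit. CKS2, a subunit of cyclin-dependent kinases, was the only one past the limit upwards as deposited (0.64), and it differed by -0.03 at the same total. The median at the same total was -0.70 in index block 1 and -1.15 in block 3, and 30 genes were past the limit in both.

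CDC20 gave the lowest difference at the same total of the 9655 genes tested. This gene, the activator of the anaphase-promoting complex (ENSG00000117399, chr1:43358981-43363203), had a lowest, median and highest E-value at the same total of 0, 5.96 and 7.20 in control cells and of 0, 1.53 and 6.58 in combination cells, means of 5.18 ± 2.01 (SD over 46 cells) and 2.11 ± 2.31 (59 cells), with a difference of -2.69 as deposited and -3.07 at the same total. It was detected in 91.3% of control and 50.8% of combination cells, and 5 combination cells exceeded the control median. UBE2C, the ubiquitin-conjugating enzyme of the same complex, differed by -2.50, and PTTG1, the securin that it destroys, by -1.46, while FZR1, the activator used after mitosis, differed by 0.05.

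Of 15 cyclins, kinases and phosphatases, 9 were lower past the limit on both scales. CCNB1, the cyclin that drives entry into mitosis, had a lowest, median and highest E-value of 3.86, 6.59 and 8.16 in control cells and of 0, 4.13 and 8.53 in combination cells at the same total. In 26 of the 59 combination cells it lay below the lowest control cell, and it was detected in all control cells and in 78.0% of the combination cells. AURKB, the kinase of the chromosomal passenger complex, and PLK1, a kinase of spindle assembly, differed by -2.54 and -2.20, AURKA by -1.70, CCNA2 by -1.68, CCNB2 by -1.67 and CDK1 by -1.07. CDC25B, a phosphatase that activates CDK1, and TTK, a checkpoint kinase, were inside the limit at -0.00 and -0.11. Of the 14 kinetochore and passenger genes and of the 17 for kinesins, spindle and cytokinesis, 10 each were lower at the same total. CENPX, a histone-fold protein of the kinetochore that the files name STRA13, is not in the list. At -2.15 it was among the 8 largest falls of genes detected in at least 30% of cells of both groups. CDCA3, detected in 28.8% of combination cells and so left out of that ranking, differed by -2.85.

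Detection was also counted over 5 mitotic genes together, CDC20, CCNB1, AURKB, UBE2C and PLK1. They are among the 8 largest falls, so that a smaller share in combination cells follows from their choice and the count is a description. All 5 were detected in 37 of 46 control cells (80.4%, 66.1 to 90.6%) and in 15 of 59 combination cells (25.4%, 15.0 to 38.4%). None of the 5 was detected in 9 combination cells (15.3%, 7.22 to 27.0%) and in 0 of 46 control cells (upper bound 7.71%). The mean difference of the 55 genes ran from -2.26 to 1.34 over control cells, with a median of 0.01, and from -2.35 to 2.14 over combination cells, with a median of -1.31. Low values were thus also found in control cells: 3 combination cells lay below the lowest control cell and 3 above the highest, and 48 lay below the control median.

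Among the 38 replication genes none was higher and 19 (50.0%, against 7.64% of all genes) were lower past the limit at the same total, with a median of -0.58. As deposited 12 were lower, against 1.76% of all genes, with a median of -0.21 that turned to 0.41 with ratios of mean linear values. Genes of nucleotide supply stood lowest, with 4 of 7 lower at the same total. RRM2, the regulated subunit of ribonucleotide reductase, differed by -2.38 and TK1, thymidine kinase, by -2.29, and TK1 was detected in 95.7% of control and 45.8% of combination cells. Of 14 genes for the replicative helicase and its loading 8 were lower, with MCM7 at -2.01 and GINS2 at -1.72, whereas MCM5 (-0.18) and CDT1 (-0.10) were not. PCNA, the polymerase clamp, differed by -1.78, by -1.15 in index block 1 and by -2.63 in block 3. The list median was -0.42 in block 1 and -0.83 in block 3.

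**Figure D2:**
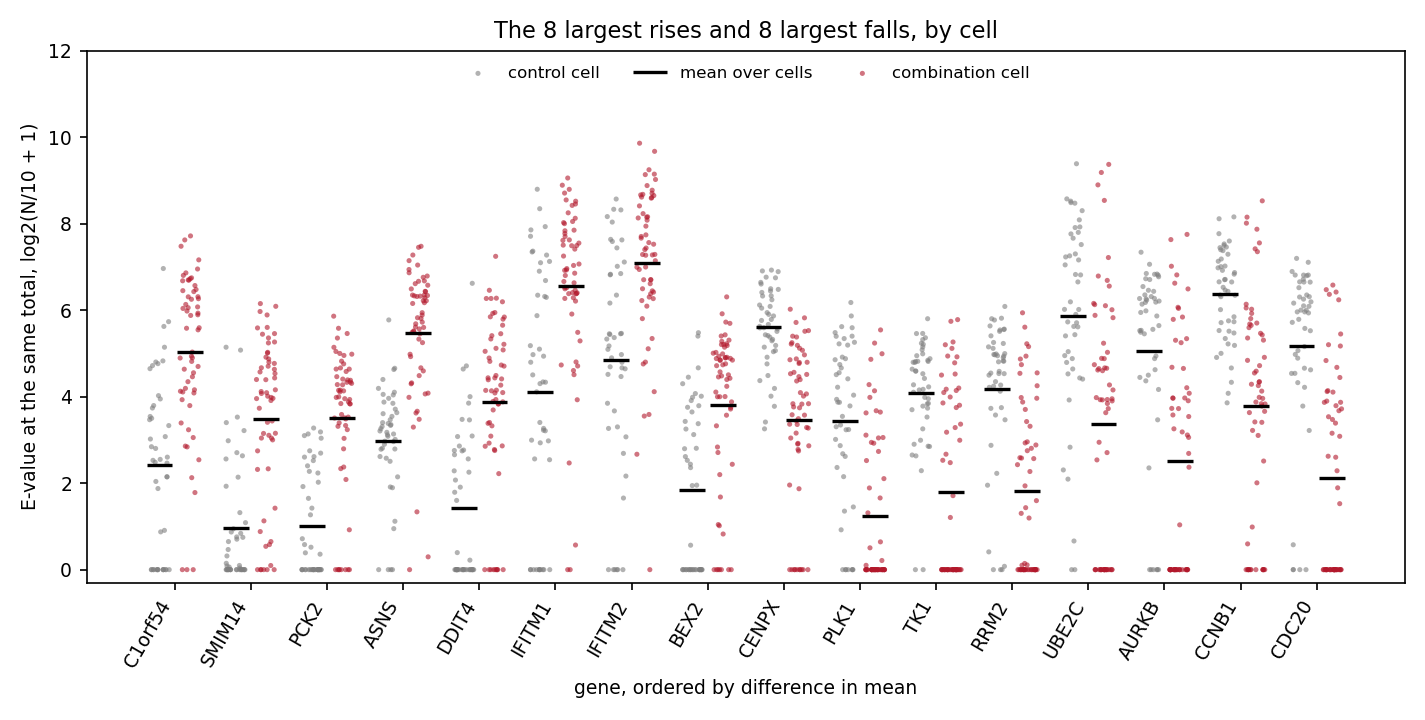
Each point is the E-value of a gene at the same total in a single cell (y axis, log2(N/10 + 1)) for the 8 largest rises and 8 largest falls (x axis), grey for 46 control cells and red for 59 combination cells, with black bars at the means. Points at 0 are cells without detection, which are more frequent in control cells for the genes on the left, such as PCK2, and in combination cells for those on the right, such as CDC20 (detected in 50.8% of the combination cells).

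The stress and mitosis scores of a cell were set against each other. Over the 59 combination cells the 2 mean differences had a Pearson r of 0.253 (Spearman rho 0.258), and over the 46 control cells 0.309 (0.309), a description in which both scores come from the same library. The mitosis score also moved with the transcript total (r = 0.409 over combination and 0.582 over control cells), and so did that of the stress response (0.271 and 0.589). These values move together with the scores, and their part in them was not tested.

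**Figure D3:**
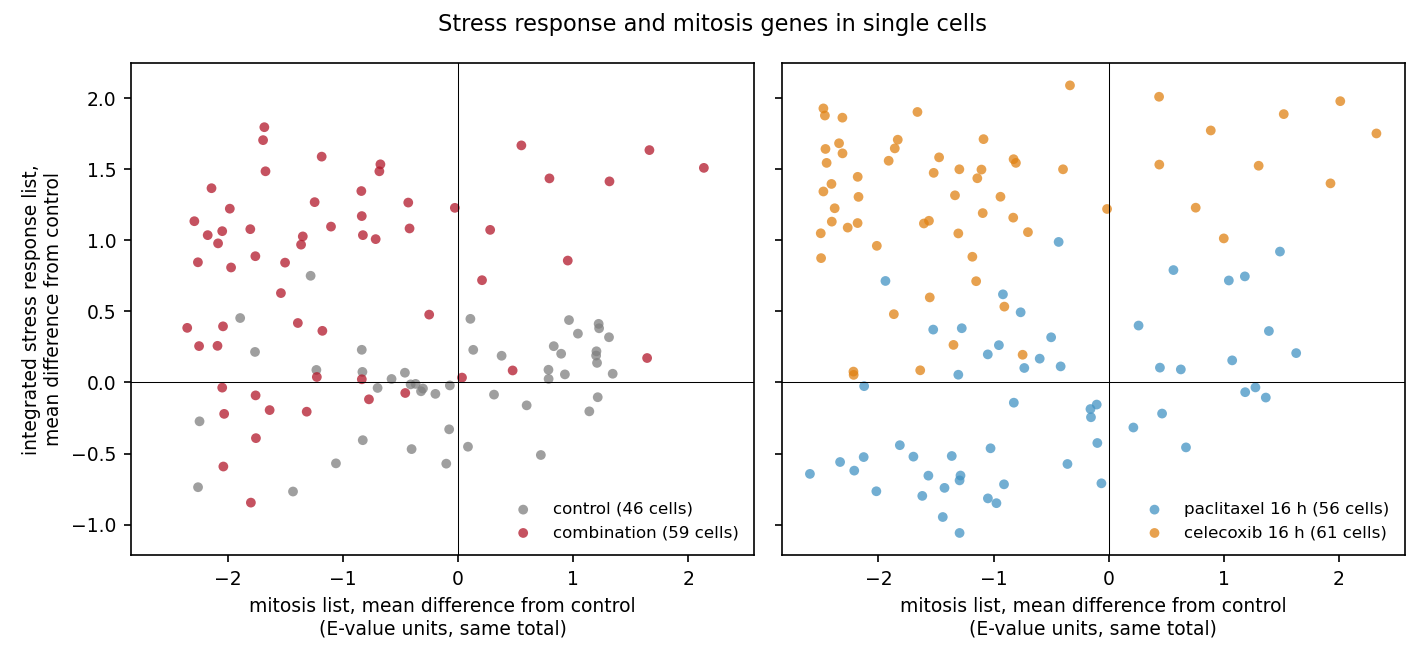
Each point is a cell, placed by the mean difference from the control means of 55 mitosis genes (x axis) and 46 integrated stress response genes (y axis) in E-value units at the same total. Most combination cells (red, left) and celecoxib cells (orange, right) lie above the control cells, 35 of 59 and 52 of 61 above the highest of them, while 3 of 56 paclitaxel cells (blue, right) do.

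Interferon-related genes were mostly higher, with fewer past the limit at the same total. Of 27 measured, 18 (66.7%, against 30.4% of all genes) were past the limit upwards as deposited and 8 (29.6%, against 7.87%) at the same total, with 2 lower (7.41%, against 7.64%), and the median was 0.76 and 0.38. IFITM1 and IFITM2, membrane proteins that block virus entry, were among the 8 largest rises. IFITM1 (chr11:310041-315272) had a lowest, median and highest E-value at the same total of 0, 4.34 and 8.80 in control cells and of 0, 6.92 and 9.06 in combination cells, and IFITM2 of 0, 5.13 and 8.57 and of 0, 7.29 and 9.86. The groups overlapped, since 2 and 15 combination cells exceeded the highest control cell, and 54 and 51 of 59 the control median. Their near copy IFITM3 differed by 0.50, and reads shared among these neighbouring genes make the split between them uncertain. BST2, which tethers viruses to the cell, differed by 1.39, IRF9 and IFNGR1, of interferon signalling, by 0.76 and 0.70, HLA-B by 0.66, and IFI27L1 and IFI27L2 by 0.96 and 0.83. PSMB10, a subunit of the immunoproteasome, was lower by -0.92, and ISG15, a ubiquitin-like protein that interferon induces strongly, differed by -0.20 at the same total. At the median of E in place of its mean the median of the list at the same total was 0.

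Other genes with large rises have less defined roles. C1orf54, a small protein of unclear function, gave the largest rise on both scales (3.19 and 2.63). Its lowest, median and highest values at the same total were 0, 2.54 and 6.96 in control cells and 0, 5.58 and 7.72 in combination cells, and 54 of 59 combination cells exceeded the control median. SMIM14, a small membrane protein of the endoplasmic reticulum, differed by 2.52 and BEX2, a regulator of growth and survival, by 1.96. ALDOC, an aldolase of glycolysis, was detected in 1 of 46 control and 25 of 59 combination cells and differed by 1.54. ERO1B, an oxidase of disulfide formation, was detected in 8.70% and 52.5% of the cells, and LANCL1, a glutathione-binding protein, in 37.0% and 78.0%. Among the losses of detection were INF2, an actin-nucleating formin (63.0% to 13.6%), KIF4A, a chromosome-bound kinesin (82.6% to 33.9%), and CDCA3, which promotes entry into mitosis (84.8% to 28.8%). MEF2B was detected in 0 of 46 control cells (exact interval up to 7.71%) and in 42.4% of combination cells, while BORCS8 was detected in 87.0% and 39.0%. Both lie on the minus strand of chromosome 19 and overlap from 19176903 to 19192131, so that reads in the shared part may be given to either. The E-value computed from the summed N of both genes at the same total had a mean of 2.59 ± 1.35 in control and 1.53 ± 1.53 in combination cells (SD over cells).

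The size of the difference in the subunits of oxidative phosphorylation depended on the scale. This pathway was chosen by the study on these cells, so its count is not independent evidence of its direction. Of 82 nuclear genes of complexes I to V, 56 (68.3%, against 30.4% of all genes) were past the limit upwards and none downwards as deposited, with a median of 0.74. At the same total 5 were higher (6.10%, against 7.87% of all genes) and 1 lower (1.22%, against 7.64%), and the median was 0.05. Neither share exceeded that over all genes. All 5 belonged to complex I, which takes electrons from NADH: NDUFS4 (0.95), NDUFB5 (0.70), NDUFA5 (0.65), NDUFS7 (0.65) and NDUFB1 (0.62). They made up 13.5% of its 37 genes, and 3 of them were past the limit in both index blocks. NDUFS4 had a lowest, median and highest E-value at the same total of 3.48, 5.81 and 7.09 in control and of 5.11, 6.64 and 7.89 in combination cells. The lower gene was ATP5G1 (ATP5MC1), a ring subunit of ATP synthase, at -0.80. The genes together held a lowest, median and highest share of the transcript total of 5.85, 7.79 and 11.3% in control cells and of 6.38, 8.22 and 11.77% in combination cells, a ratio of medians of 1.05. Only 1 combination cell exceeded the highest control share.

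Other lists of abundant short transcripts followed the same course. Of 79 cytosolic ribosomal protein genes, 46 (58.2%, against 30.4% of all genes) were past the limit upwards as deposited with a median of 0.64. At the same total 1 was higher (1.27%, against 7.87% of all genes) and 3 lower (3.80%, against 7.64%), with a median of -0.06. The median transcript length was 785 bases in that list and 760.5 bases in complexes I to V against 3304 bases over all genes, and the difference as deposited moved with both level and length. It had a median of 0.16 over the 3151 genes with a mean E-value over both groups of at most 1 and of 0.61 over the 401 genes between 6 and 8, and of 0.52 for transcripts up to 1000 bases and 0.30 for those above 5000. The pseudocount of 10 in the E-value compresses differences of low genes. At the same total the medians over these level bins ran from -0.08 to 0.04.

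Several groups of housekeeping machinery held more genes past the limit downwards at the same total than the 7.64% over all genes. Of 35 proteasome subunits 15 (42.9%) were lower and none higher, with medians of -0.50 at the same total and 0.13 as deposited, and all 59 combination cells lay below the control median of the list. Their share of the transcript total was 2.90% in the median control and 2.09% in the median combination cell. The nucleolar factors of ribosome assembly (15 of 53 or 28.3% lower, median -0.44, as deposited 0.02), the mitochondrial ribosome (15 of 77 or 19.5% lower, -0.32, as deposited 0.33), the splicing factors (9 of 33 or 27.3% lower, -0.38, as deposited 0.20) and the small nuclear ribonucleoproteins (4 of 25 or 16.0% lower, -0.41, as deposited 0.25) also had a lower median at the same total. The rescaling itself lowers every list, so a small positive median as deposited turns negative by construction, and the counts are read against 7.64% of all genes lower at the same total. GAPDH, the glycolytic enzyme often used as a reference, had a mean E-value of 10.3 in both groups as deposited and a difference of -0.76 at the same total.

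Tubulins, the building blocks of the microtubules that paclitaxel binds, differed among themselves. Of 14 measured, 6 were higher as deposited (42.9%, against 30.4% of all genes). At the same total TUBA1A (1.21) and TUBE1 (1.12) were higher (14.3%, against 7.87% of all genes). TUBG1 (-0.60), TUBB4B (-0.63) and TUBB2A (-0.68) were lower (21.4%, against 7.64%). The tubulins held 0.52% of the transcript total in the median control cell and 0.41% in the median combination cell. Of the prostaglandin enzymes, PTGR1 and PTGR2, which break prostaglandins down, differed by 1.18 and 0.87 and PTGES2, a prostaglandin E synthase, by -0.93 at the same total, and the cyclooxygenase genes were not analysed here. Of 25 sterol synthesis genes, MSMO1 (1.01), GGPS1 (0.83) and TM7SF2 (0.62) were higher (12.0%, against 7.87% of all genes). ACAT2 (-1.41) and DHCR7 (-0.88) were lower (8.00%, against 7.64%). Among 23 immediate early genes 4 were lower at the same total (17.4%, against 7.64% of all genes), with FOS at -1.78, EGR1 at -0.78, IER2 at -0.71 and FOSB at -0.59.

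**Figure D4:**
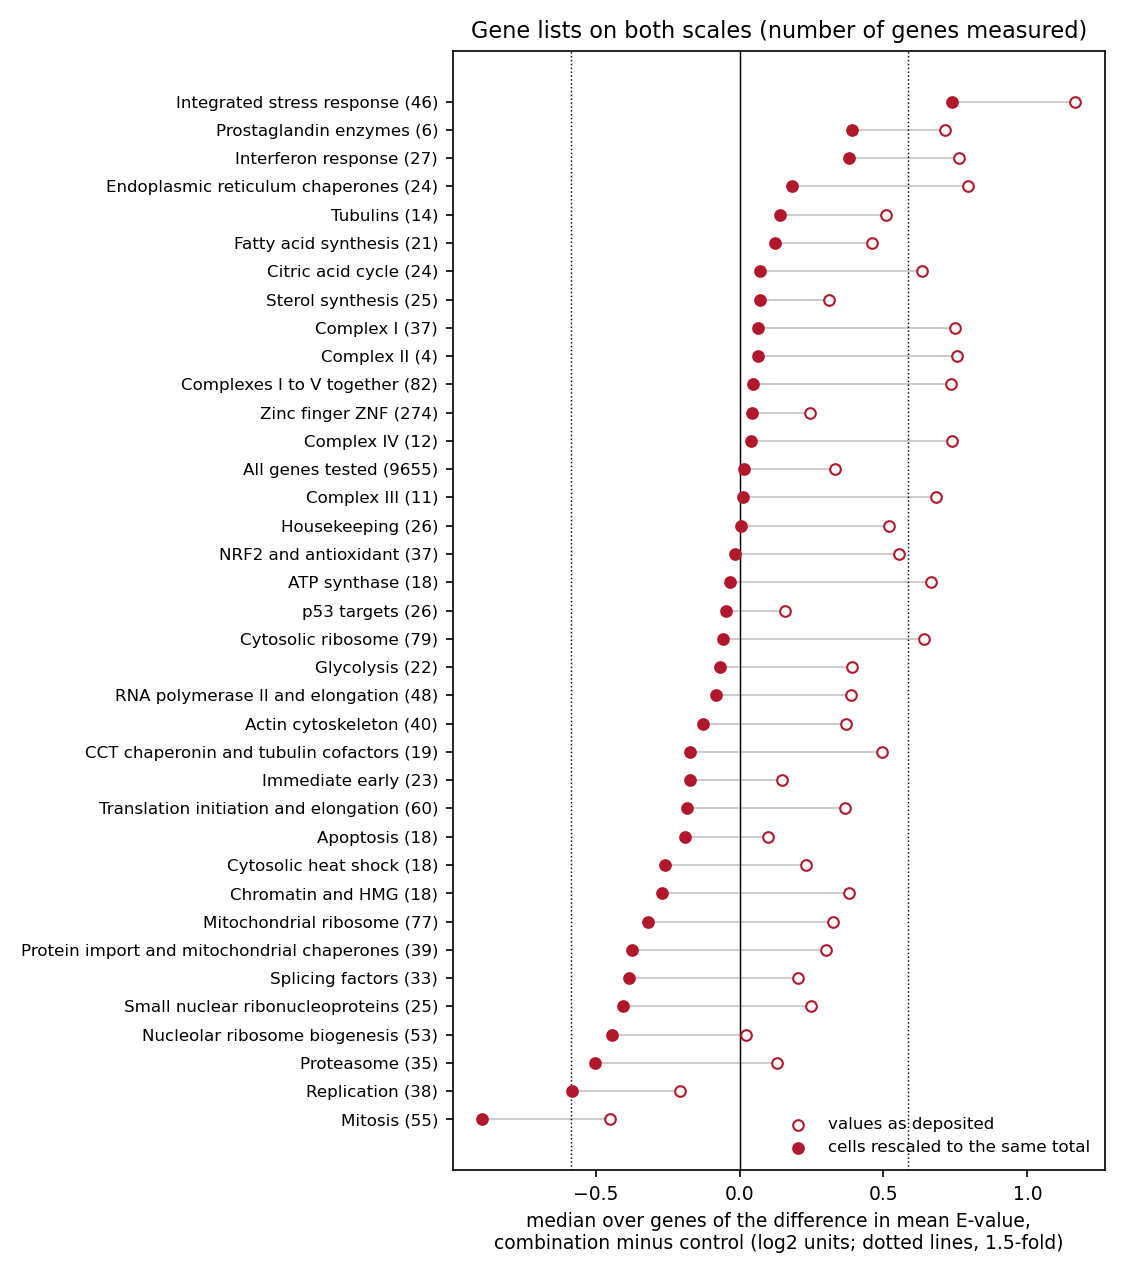
Median over the genes of each list of the difference in mean E-value, combination minus control (x axis, log2 units), as deposited (open circles) and at the same total (filled circles), with the number of genes in parentheses and dotted lines at 1.5-fold. Rescaling moved every list to the left; the integrated stress response stayed past the upper line (0.74), mitosis alone lay past the lower line (-0.89) with replication just inside it (-0.58), and complexes I to V together moved from 0.74 to 0.05.

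The cells given a single drug for 16 h were set beside the combination at the same total. They share the control cells with it, so that no correlation or overlap between the comparisons was computed, and each drug was again a single capture run. At this scale 1.89% of the genes were past the limit upwards and 13.2% downwards with paclitaxel, and 8.87% and 10.1% with celecoxib. As deposited these shares were 0.0932% and 37.3% with paclitaxel and 0.383% and 43.9% with celecoxib. Transcript totals differed in opposite directions: the median cell stood at -0.99 with paclitaxel, -1.52 with celecoxib and 0.49 with both, as log2 ratios to the median control cell.

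The integrated stress response genes had a median of -0.13 with paclitaxel (2 of 46 past the limit upwards, 5 downwards), 1.16 with celecoxib (37 upwards) and 0.74 with both (25 upwards). DDIT4 differed by 0.92, 4.11 and 2.46, TRIB3 by 0.21, 3.37 and 1.64, GDF15 by 0.72, 3.62 and 1.25, and DDIT3 by -0.37, 2.33 and 1.18, in that order of treatments. For these 4 genes the value with both drugs lay between those of the single drugs. At the same total ASNS (0.18, 2.31 and 2.49) and PCK2 (0.30, 2.60 and 2.49) stood at nearly the same value with celecoxib and with both. PHGDH (-0.18, 1.07 and 1.75) stood highest with both. As deposited ASNS (-0.31, 0.97 and 3.11) and PCK2 (0.04, 1.46 and 2.99) were also highest with both. CDKN1A differed by 0.49, 1.71 and -0.10.

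For mitosis the medians were -0.47 with paclitaxel, -0.998 with celecoxib and -0.89 with both, and for replication -0.41, -0.91 and -0.58. CDC20 differed by -1.92, -2.43 and -3.07, in the same order. At the same total it stood lowest with both drugs, which is favoured by its choice as the largest fall of the combination. As deposited it stood lowest with celecoxib (-2.46, -3.18 and -2.69). The mitosis medians as deposited were -0.89, -1.59 and -0.45, the smallest fall being that with both drugs. All 5 of the mitotic genes counted together were detected in 48.2% of paclitaxel cells, 23.0% of celecoxib cells and 25.4% of combination cells, and none of them in 1 of 56, 0 of 61 and 9 of 59 cells.

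Some genes had their highest value with both drugs, which for C1orf54, SMIM14 and IFITM1 is favoured by their choice as largest rises of the combination. For TUBA1A it is favoured by its choice as the highest tubulin of the combination. TUBA1A differed by -0.08 with paclitaxel, -0.63 with celecoxib and 1.21 with both, C1orf54 by 1.08, 2.10 and 2.63, SMIM14 by 0.50, 1.23 and 2.52, and IFITM1 by 1.41, 1.93 and 2.44. FOS differed by -2.83, 0.64 and -1.78. The proteasome median was -0.37, -0.77 and -0.50, and that of complexes I to V 0.15, -0.25 and 0.05. The combination thus stood between the single drugs in both lists at the same total. As deposited it stood above both single drugs, at -1.14, -2.07 and 0.13 for the proteasome and -0.65, -1.60 and 0.74 for complexes I to V. Whether the drugs differ from their combination beyond the spread between runs was not tested, since each is 1 run.

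**Figure D5:**
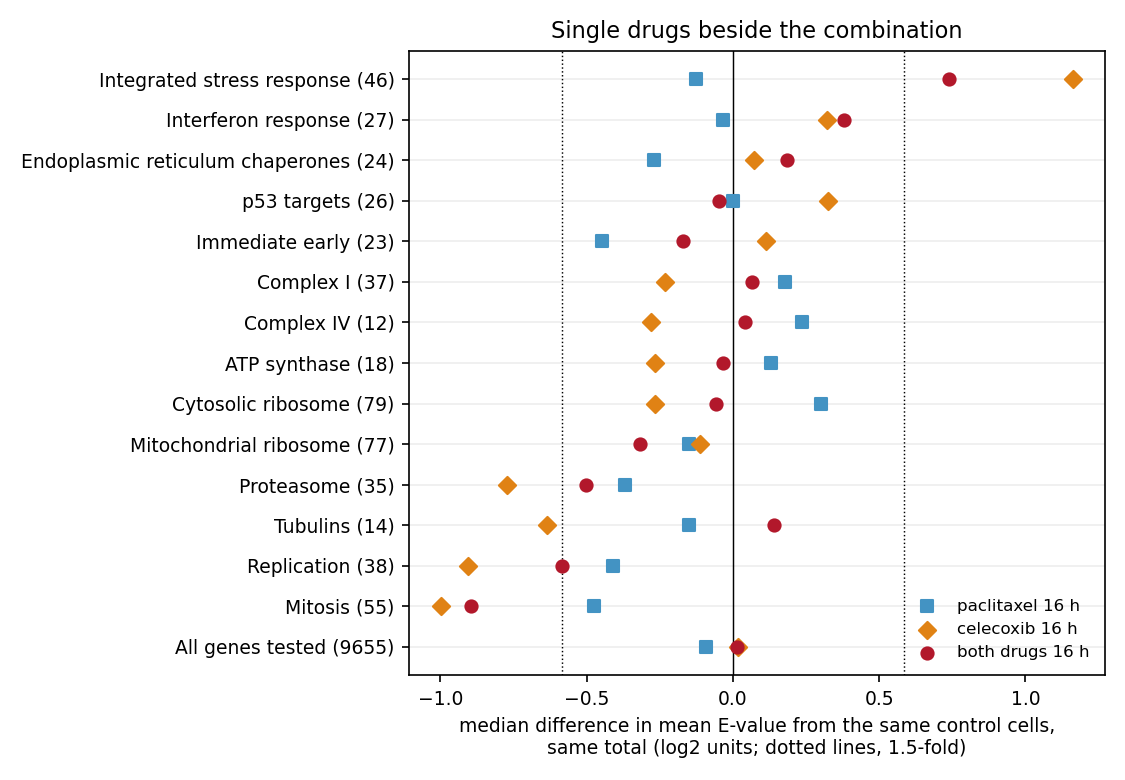
Median difference in mean E-value from the same 46 control cells at the same total (x axis, log2 units, dotted lines at 1.5-fold) for 14 lists and all genes, with paclitaxel (blue squares), celecoxib (orange diamonds) and both drugs (red circles) at 16 h. Celecoxib and the combination lie past the upper line for the integrated stress response (1.16 and 0.74) and past the lower line for mitosis (-0.998 and -0.89), and for tubulins the combination (0.14) lies above both single drugs (-0.15 and -0.63). The sign of that tubulin median is not stable: it ran from -0.09 to 0.26 over the alternatives run, and 7 of the 14 genes lay below 0.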

How the data were processed

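Single A2780 cells were captured on a C1 system, and Smart-seq2 libraries were sequenced with spike-in RNAs added to each well. Per the submitters' processing notes and methods, the authors trimmed reads with Trim Galore, aligned them with Bowtie2, estimated TPM (transcript abundances) with RSEM 1.3.0 on hg38 with the spike-in sequences, and normalised every cell by the spike-in of highest abundance. What the authors deposited are log2 values, E = log2(N/10 + 1), where N is the normalised TPM, for genes detected in over 30% of cells of at least 1 condition. A row of cell states predicted by the authors was not used. The authors removed 11 of 57 control cells and 0 of 59 combination cells for poorly detected housekeeping genes, set as a mean E-value of these genes below 1. This limit lies on the spike-in scale, so the range of totals given for control cells holds only cells that passed it. A well noted as 0 or debris was among the retained combination cells (1 of 59). Depth per cell is unknown, so detection stands in its place. Doublets were not called, for want of counts.

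N was recovered from E, and for the second scale each cell was multiplied to the median control total and E computed again. Of 9664 genes, 9655 passed the detection filter when it was computed from the file. A gene counted when its mean E-value differed by more than log2 of 1.5, which is a size and not a test. With 1 run per condition there is no residual spread between samples, and no p-value was computed. Differences in E-value understate the change of low genes. Intervals of shares of cells are exact Clopper-Pearson 95% intervals and cover counting error only.

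Named genes were the 8 largest rises and falls at the same total and the 5 largest as deposited, among genes detected in at least 30% of cells of both groups, the 5 largest gains and losses in share of cells, and the highest and lowest member of each of 38 lists. Further list members, and the 6 promoters, were named with their values in view. The cells, the lists and the comparison were chosen with earlier results of these data known. Coordinates and transcript lengths came from GENCODE 44 (hg38) by gene identifier for 9634 genes, and promoters from RefSeq by symbol. Python 3.11.15 was used with numpy, pandas and scipy, and the steps were tested on simulated data. The values of 1 member of the interferon list are not reported here.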

Additional observations from a re-analysis of the deposited data

How the results depend on the processing

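No paired analysis was possible because the replicate numbers are unique to each cell and each condition is 1 capture run. With no replicates, a median counted as moved when it shifted by more than the difference between the index blocks of the combination, or by more than the typical difference over the lists (0.0594 at the same total, 0.151 as deposited), and a count when it shifted by over 1.5 times. With only the combination cells whose totals lay in the control range, 1371 genes were up and 714 down as deposited and 1152 down at the same total, the median difference as deposited was 0.091 over genes and 0.39 over oxidative phosphorylation genes, the stress response median at the same total was 0.63, and the difference in median genes detected was -713. With a pseudocount of 1, 867 genes were down as deposited, 1588 up and 1942 down at the same total, the medians of the stress response and mitosis were 0.90 and -1.64, and 5 lists in place of 2 had a median past the limit. With the log2 ratio of mean linear values, 6968 genes were up as deposited and 2484 at the same total, with medians over genes of 0.93 and 0.17, and the stress response stood at 1.06. With the median E-value over cells, 684 genes were down as deposited and 1182 at the same total, the median over genes as deposited was 0.15 and that of mitosis -1.47. Index block 3 alone gave 332 genes down as deposited. Leaving out the 5 combination cells of highest total gave 0.65 for the stress response, rescaling to the median of all cells 0.67, and keeping only genes detected in over 50% of cells gave 4 lists past the limit and a difference in genes detected of -433.5. The causes of these shifts were not tested. The median over genes at the same total (0.02) turned to -0.023 with totals in the control range and to -0.036 with a pseudocount of 1. No list median past the limit changed sign under the alternatives run, and 113 of 138 such alternatives kept their side of it, while medians and single genes inside the limit changed sign more often, among them mitosis and replication as deposited (0.22 and 0.41 with linear ratios). Of named genes past the limit, the value that turned was VIM at the same total, 0.062 in index block 3 alone against -0.72. With the median E-value over cells, GDF15, ALDOC, EIF4EBP3 and MEF2B differed by 0, since fewer than 50% of the cells of either group detected them. Of 1632 alternatives of named gene values past the limit, 1561 kept their side of it. Read depth per cell is unknown and limits what a missing detection shows.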
